A study of Mus musculus with 12 samples.

Results

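Maternal genes whose products store the mRNAs of the mouse oocyte and zygote or act at their cap or tail were described, 9 in all. They were the mRNA-packaging gene Ybx2, the storage genes Zar1 and Zar1l, the CPE-binding gene Cpeb1 and the cap-binding gene Eif4e1b. The others were the poly(A)-binding genes Pabpc1l and Pabpn1l and the uridylyltransferase genes Tut4 and Tut7. All 9 were chosen by name as known factors of maternal mRNA storage and tailing, and the deposited values held each of them among 24535 genes. The 12 libraries formed 6 groups of 2. By the labels, all zygotes came from superovulated and mated B6D2F1 females aged 8 to 10 weeks and were collected 18 to 20 h after hCG. The study's methods give a younger age range for the females. Lsm1_KD zygotes were injected with siRNA against Lsm1, and Ctrl zygotes with scramble siRNA. For RNA immunoprecipitation (RIP-seq), FLAG zygotes were injected with Lsm1_3XFlag mRNA and Ctrl zygotes of the RIP-seq with Lsm1 mRNA, for which the labels give no tag. The lysate RNA was sequenced as Input, and the RNA recovered on anti-FLAG M2 gel as IP. Every library was made from pooled zygotes. The LSM1 that was precipitated was therefore made from injected mRNA and not from the zygote's own gene, and the siRNA lowered Lsm1 without removing it. The labels describe injection into zygotes. The study's scheme for its knockdown shows injection into GV oocytes, followed by maturation and fertilization in vitro. The study also ran a zygote-stage knockdown, for which it reports no effect on its histone mark or on embryo development. Which knockdown was used for the RNA-seq cannot be told apart here.

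A growing oocyte makes more mRNA than it translates and stores the rest in a silent form until meiosis and fertilization. Stored mRNAs are coated by packaging proteins and carry short poly(A) tails. CPEB1 binds cytoplasmic polyadenylation elements (CPEs) in their 3′ UTRs and controls when the tail is lengthened, and poly(A)-binding proteins then occupy the tail. Stored mRNAs that are no longer needed lose the tail, receive uridines from TUT4 and TUT7, and are decapped and degraded. LSM1 is a subunit of the cytoplasmic LSM1-7 ring, which binds the 3′ ends of deadenylated or oligouridylated RNAs and promotes their decapping.

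The libraries held 4636492 to 13968315 estimated counts in the RNA-seq and 9865512 to 31586450 in the RIP-seq. Lsm1 itself had 61.7 and 69.7 CPM (counts scaled by the library total) in Lsm1_KD zygotes, against 152 and 144 CPM in Ctrl zygotes. It took 0.993% and 1.47% of the counts in the FLAG Input, against 0.00163% and 0.00161% in the Ctrl Input, so that the Ctrl libraries of the RIP-seq showed no excess of Lsm1 RNA although their treatment label names injected Lsm1 mRNA. Their titles name IgG and their antibody label the anti-FLAG gel, so what the Ctrl pull-down controls for is not settled by the labels. Both FLAG IP libraries stood apart. In replicate 2, Lsm1 took 12.1% of the counts, against 1.11% in replicate 1. In replicate 1, repeats took 12.7% of the counts and at most 2.63% in each of the other 11 libraries, and its correlation with the other RIP-seq libraries (Pearson r of log2 CPM across features, 0.741 to 0.849) lay below that between the others (0.941 to 0.997). All 10 oocyte markers were detected in every library. Of 9 cumulus cell markers, Amh, Inha, Fshr, Foxl2 and Ptx3 were at 0 in the 4 RNA-seq libraries, and the summed level of the list was 13.8 to 15.2 CPM in Lsm1_KD and 10.8 to 16.5 CPM in Ctrl zygotes. Of 5 sperm markers, Prm1, Tnp1, Tnp2 and Odf1 were at 0 in each RNA-seq library, so that the summed level rests on Prm2 alone. It was 6.23 to 9.28 CPM in Lsm1_KD and 1.93 to 2.02 CPM in Ctrl zygotes, without overlap. The summed level of 3 blood markers was 0 to 0.184 CPM in Lsm1_KD and 0.674 to 6.47 CPM in Ctrl zygotes. The part of these differences in the knockdown values was not tested.

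Sequences of 2 kinds are shown. The first is the splice junction at which the 2 RefSeq transcripts of Ybx2 differ. The gene values of Ybx2 sum both transcripts and include the reads of either first exon. Its TPM also depends on the split between them, since NM_001347634 is 1354 nt and NM_016875 1564 nt long. These transcripts share 8 of their 9 exons on the forward strand of chromosome 11 (GRCm38) and differ in the first exon, which spans 69936328 to 69936465 (138 nt, 56.5% G or C) in NM_001347634 and 69935899 to 69936248 (350 nt, 80.6% G or C) in NM_016875. The last 20 bases of each first exon are in capitals, followed by the first 20 bases of the shared second exon, which starts at 69936897.
Ybx2 NM_001347634: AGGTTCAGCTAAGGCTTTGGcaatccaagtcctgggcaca
Ybx2 NM_016875: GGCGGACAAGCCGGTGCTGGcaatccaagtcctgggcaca

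The second set holds letters near the 3′ end of the kind that cytoplasmic tailing factors and the cleavage machinery recognize. It is shown because some of the members bind or act on tails. The windows are those of Ybx2 and Eif4e1b, which were called in the knockdown, and of Tut4, the member called higher in the pull-down. The last 100 nt of each 3′ UTR were searched on the transcript strand for the CPE letters TTTTAT and for the poly(A) signals AATAAA and ATTAAA, which do not overlap in the windows shown. Each line is 30 bases of the RefSeq transcript (GRCm38.p6) with the match in capitals.
Ybx2: cctctgaagccaTTTTATgaactgtcatgt
Eif4e1b: tttctgtatctaAATAAAcacttctggaac
Tut4: ctattttaagttAATAAAtctttttgacaa
The window of Ybx2 lies at chr11:69941532-69941561, that of Eif4e1b at chr13:54788427-54788456 and that of Tut4 at chr4:108559384-108559413, each on the forward strand. Of the 9 members, 1 (Ybx2) had the CPE letters, against 14.1% of 28511 transcripts with a window of this length, and 7 had a poly(A) signal, against 83.2%. Ybx2 had the CPE letters 60 nt from its annotated end and neither poly(A) signal. Zar1l had no full window, since its annotated 3′ UTR is 14 nt long. It is still counted among the 9 as without a match, whereas transcripts with so short a 3′ UTR were left out of the 28511. A match is a description of the letters and not of a site in use.

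The first question was how strongly zygotes express these genes. Levels between genes are given in TPM, a share of the library that is corrected for transcript length. In the RNA-seq of Ctrl zygotes, Zar1 (chromosome 5, 72577114 to 72581084, reverse strand), which encodes an oocyte protein that binds and stores maternal mRNAs, stood above the other members. It had 1841 and 1169 TPM in Lsm1_KD zygotes, against 2124 and 1754 TPM in Ctrl zygotes, and ranked 54 and 74 among all features of the 2 Ctrl libraries. Pabpn1l (chromosome 8, 122619471 to 122622735, reverse strand), which encodes a cytoplasmic poly(A)-binding protein that acts in maternal mRNA clearance, followed with 357 and 167 TPM in Ctrl zygotes. Eif4e1b (chromosome 13, 54783998 to 54788459, forward strand), an oocyte homologue of the cap-binding protein eIF4E, had 220 and 219 TPM, and these 2 neighbours overlapped. Zar1l and Ybx2 also overlapped each other, at 142 and 72.9 TPM for Zar1l and 80.8 and 57.3 TPM for Ybx2. Cpeb1 had 45.1 and 47.1 TPM, Tut7 31.4 and 26.9 TPM, and Pabpc1l 24.3 and 18.9 TPM, each without overlap with the next.

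Tut4 had the fewest counts of the 9 members in each RNA-seq and Input library. It lies on chromosome 4 (108459410 to 108559415, forward strand) and encodes a terminal uridylyltransferase that acts redundantly with TUT7 on maternal mRNAs. Its RNA-seq libraries held 4 and 6 estimated counts in Lsm1_KD zygotes, against 0 and 1 in Ctrl zygotes. This is a ratio of 13.6 per total count with an exact 95% interval of 1.93 to 589, which covers counting error only, and Tut4 did not pass the filter on low counts, so that it was not tested there. In the Input libraries it reached 0.139 and 0.135 TPM in FLAG zygotes, against 0.0896 and 0.0857 TPM in Ctrl zygotes. Tut7 (chromosome 13, 59771879 to 59823147, reverse strand), its paralogue, was above Tut4 in each of the 12 libraries.

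The order of the members differed between the RNA-seq and the Input libraries of the RIP-seq, which were made with another library kit. In the Ctrl Input, Eif4e1b came first with 664 and 844 TPM, followed by Zar1l with 453 and 563 TPM, and Zar1 had 350.0 and 414 TPM. Pabpc1l (chromosome 2, 164025224 to 164050538, forward strand), the embryonic poly(A)-binding protein gene, had 149 and 186 TPM in the Ctrl Input. The mean level of Pabpc1l in the RNA-seq of Ctrl zygotes, 21.6 TPM, was thus 7.75-fold lower than its mean of 167 TPM in the Ctrl Input. Ybx2 was 5.42-fold lower, Zar1l 4.74-fold lower and Eif4e1b 3.44-fold lower in the RNA-seq, whereas Zar1 was 5.08-fold higher there. On the log2 scale these ratios of RNA-seq over Input ran between -2.95 for Pabpc1l and 2.34 for Zar1, while the middle 50% of 10368 features at 1 TPM or more in both lay between -0.53 and 1.24. Pabpn1l averaged 262 TPM in the RNA-seq and 254 TPM in the Input, and Cpeb1 46.1 and 55.3 TPM. The kit, the injected RNA and the cells differ together between these libraries and cannot be told apart, so no test was made. The study's methods also describe amplified cDNA from a few embryos for its RNA-seq, which the labels do not name. The transcript of Zar1l in the files is 876 nt long, the length of its coding sequence, so that its level per length rests on a model without UTRs.

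**Figure D1:**
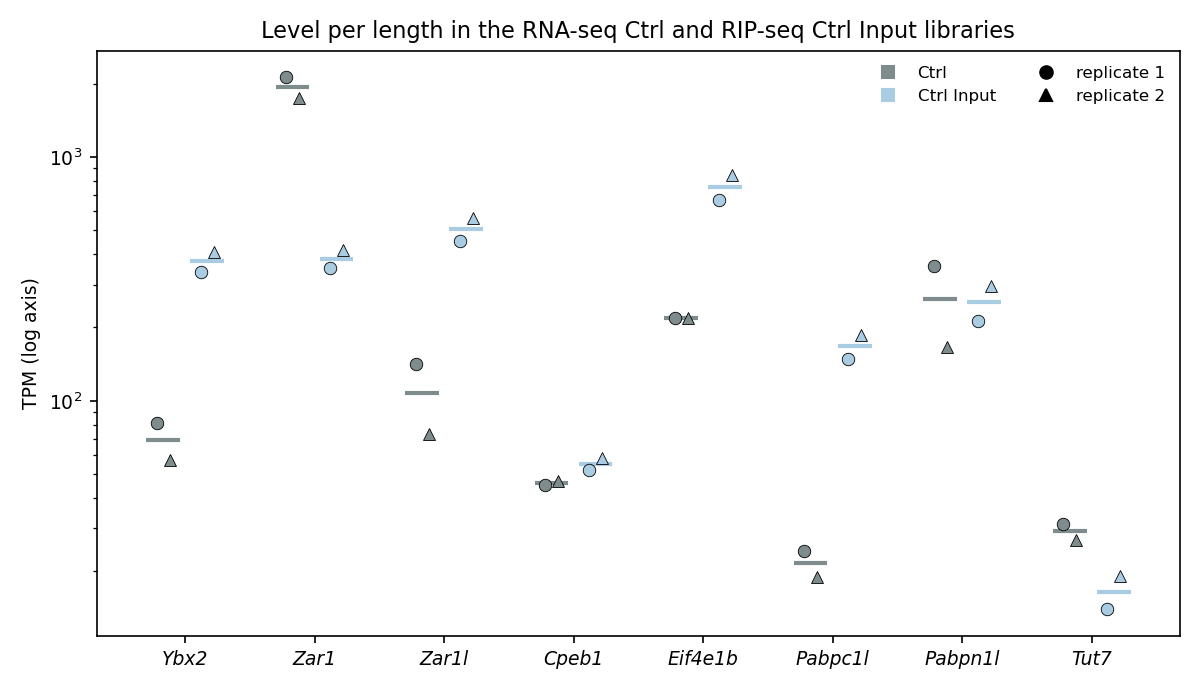
Level per length (TPM, log axis) of 8 members in the 2 RNA-seq libraries of Ctrl zygotes and the 2 Ctrl Input libraries of the RIP-seq. Circles and triangles are replicates 1 and 2, and bars are means. Zar1 lies higher in the RNA-seq, and Ybx2, Zar1l, Eif4e1b and Pabpc1l lie higher in the Input. Tut4, under 0.1 TPM in each of these libraries, is not drawn.

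The knockdown was compared with Ctrl zygotes to ask whether maternal RNAs change when Lsm1 is lowered. Of the 8 members that could be tested, 3 rose in Lsm1_KD zygotes and none fell. These were Ybx2, Eif4e1b and Cpeb1, at an adjusted p under 0.05 in edgeR over 11313 features. Over all features tested, 6.59% rose and 4.73% fell at this threshold, and the unadjusted p was under 0.05 for 27.3% of them and for 5 of the 8 members. The median log2 fold change was 0.54 over the 8 members and 0.006 over all features. The values of 4 members were higher and of 1 member lower in both Lsm1_KD libraries than in both Ctrl libraries, against 29.2% and 28.6% of all features. With 2 libraries a group an exact permutation test of a single gene cannot go below p = 0.333, so each call rests on the spread that edgeR pools across features. In such pooled samples, fewer cells of a type and less RNA per cell cannot be told apart.

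Ybx2 (chromosome 11, 69935899 to 69941603) encodes MSY2, an abundant Y-box protein that packages and stabilizes maternal mRNA in mouse oocytes. Its normalized count was 117 and 124 CPM in Lsm1_KD zygotes, against 41.7 and 31.1 CPM in Ctrl zygotes. The lower Lsm1_KD library was well above the higher Ctrl library. The means were 121 ± 4.94 CPM in Lsm1_KD and 36.4 ± 7.48 CPM in Ctrl zygotes (SD, n = 2 each), a 3.30-fold difference and a log2 fold change of 1.72 with a standard error (SE) of 0.25 (edgeR adjusted p = 0.0029). The difference remained past the threshold without any single library, at log2 fold changes of 1.51 to 1.94.

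The RNA-seq reads of Ybx2 were assigned mostly to the transcript with the shorter first exon. NM_001347634 took 90.1% to 91.3% of the Ybx2 counts in Lsm1_KD and 85.2% to 85.8% in Ctrl zygotes, but 0.562% to 8.74% in the 8 RIP-seq libraries, where NM_016875 took the rest. In CPM, NM_001347634 had 107 and 112 in Lsm1_KD zygotes, against 35.5 and 26.7 in Ctrl zygotes. NM_016875 had 10.1 and 12.3 CPM in Lsm1_KD zygotes, against 6.18 and 4.43 CPM in Ctrl zygotes. Both transcripts were thus higher in both Lsm1_KD libraries. When single transcripts were tested in place of genes, the log2 fold change of NM_001347634 was 1.79 with an adjusted p of 0.10 in edgeR, in a fit that called no transcript at all, with 2775 transcripts at an unadjusted p under 0.05. The split between the transcripts differed between RNA-seq and RIP-seq libraries, which differ in kit, and the part of the G and C content of the first exons in it was not tested.

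**Figure D2:**
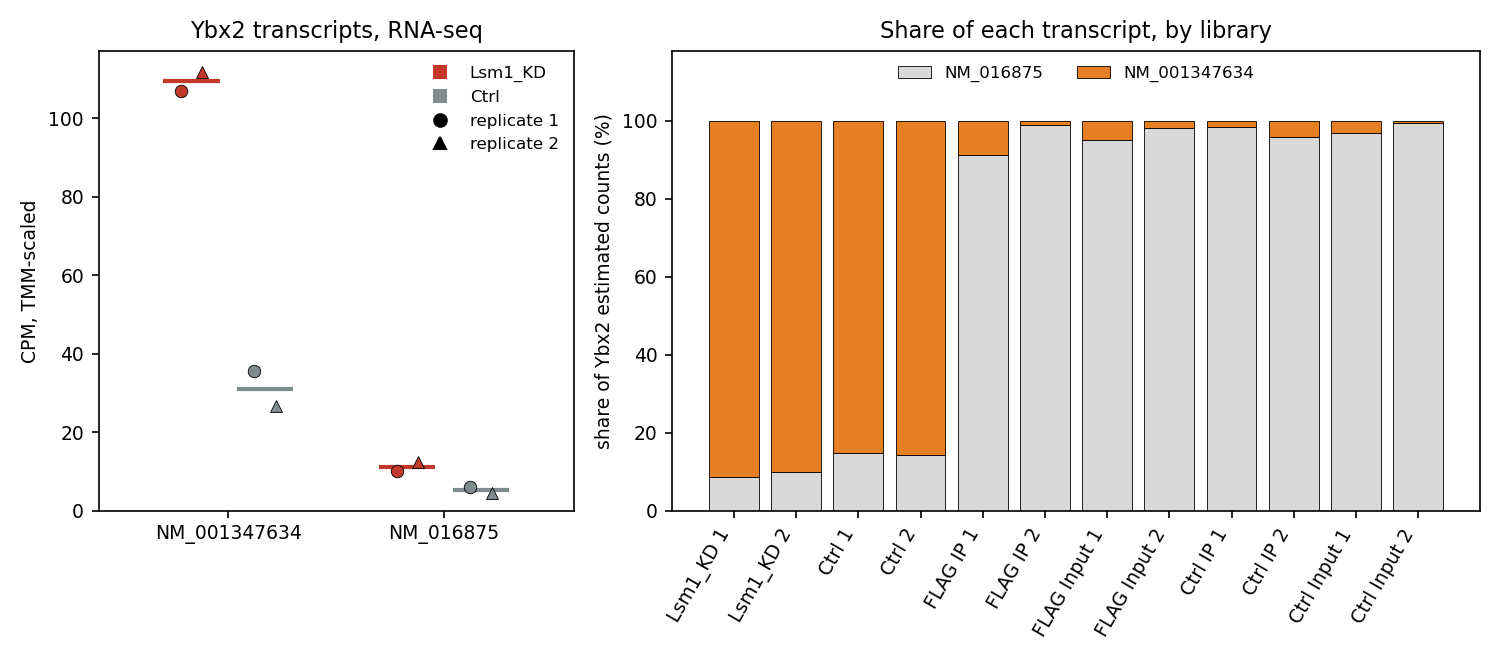
The left panel shows the 2 transcripts of Ybx2 in the RNA-seq (CPM scaled by TMM factors, circles and triangles for replicates 1 and 2, bars for means). NM_001347634 reached 107 and 112 CPM in Lsm1_KD and 35.5 and 26.7 CPM in Ctrl zygotes. The right panel gives the share of each transcript in the Ybx2 counts of the 12 libraries, with NM_001347634 at 85.2% or more in each RNA-seq library and at 8.74% or less in each RIP-seq library.

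Eif4e1b rose to 297 and 292 CPM in Lsm1_KD zygotes, against 157 and 164 CPM in Ctrl zygotes. The replicates lay close together and the groups were far apart. The log2 fold change was 0.88 (SE 0.19, adjusted p = 0.018 in edgeR), a 1.84-fold difference. Leaving out Lsm1_KD replicate 2 gave 0.88 and an adjusted p of 0.065, and leaving out Ctrl replicate 1 gave 0.84 and 0.052, so that the call was lost in either case. In limma on log2 (TPM + 1) its log2 fold change was 0.60 with an adjusted p of 0.065, and the median of all features there was -0.23.

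Cpeb1 (chromosome 7, 81347026 to 81454758, reverse strand) had 96.6 and 115 CPM in Lsm1_KD zygotes, against 57.1 and 62.5 CPM in Ctrl zygotes. The groups did not overlap. Its log2 fold change was 0.83 (SE 0.23, adjusted p = 0.044 in edgeR), a 1.77-fold difference just inside the threshold. The call did not hold without any 1 of the 4 libraries, with adjusted p-values of 0.054 without Lsm1_KD replicate 1, 0.232 without Lsm1_KD replicate 2, 0.155 without Ctrl replicate 1 and 0.102 without Ctrl replicate 2, at log2 fold changes of 0.69 to 0.93. It was also lost with the replicate number as a block (0.82, adjusted p = 0.103 in edgeR) and in limma on log2 (TPM + 1) (0.53, adjusted p = 0.146). The counts of the 4 Cpeb1 transcripts split unevenly between replicates. NM_007755 took between 0.301% and 50.2% of the Cpeb1 counts in the 2 Lsm1_KD libraries, so that only the sum over the gene was read.

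Zar1l, a relative of Zar1 (chromosome 5, 150507055 to 150518159, reverse strand), had 60.8 and 62.9 CPM in Lsm1_KD zygotes, against 42.0 and 23.0 CPM in Ctrl zygotes. The groups did not overlap, but the Ctrl libraries differed from each other, and the log2 fold change of 0.92 (SE 0.31) had an adjusted p of 0.086 in edgeR. Without Ctrl replicate 1 it was 1.42 (adjusted p = 0.014), and after a fitted length trend was removed it was 0.31 (adjusted p = 0.54). Zar1 itself had 1041 and 695 CPM in Lsm1_KD zygotes, against 984 and 857 CPM in Ctrl zygotes. These values overlapped, and the log2 fold change was -0.085 (SE 0.22, adjusted p = 0.85 in edgeR).

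Neither poly(A)-binding gene passed the test. Pabpc1l had 33.6 and 21.03 CPM in Lsm1_KD zygotes, against 25.2 and 20.5 CPM in Ctrl zygotes. That is a log2 fold change of 0.24 with SE 0.34 (edgeR adjusted p = 0.70). Pabpn1l had 59.4 and 121 CPM in Lsm1_KD zygotes, against 147 and 72.7 CPM in Ctrl zygotes. That is a log2 fold change of -0.28 with SE 0.38 (edgeR adjusted p = 0.69). For Pabpn1l the libraries of a group differed by more than the group means did. Tut7 lay in the other direction from the members that rose, with 45.7 and 47.1 CPM in Lsm1_KD zygotes, against 73.0 and 65.3 CPM in Ctrl zygotes. Its groups did not overlap, and the log2 fold change of -0.58 (SE 0.24) had an unadjusted p of 0.037 and an adjusted p of 0.153 in edgeR.

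**Figure D3:**
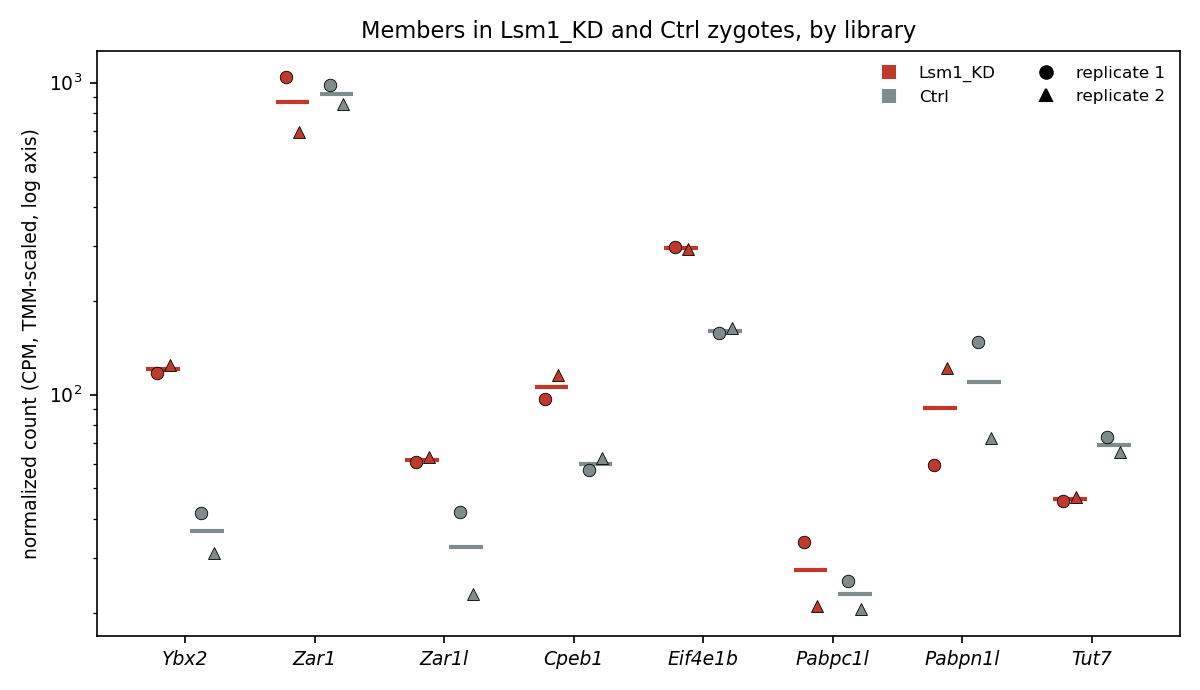
Normalized count (CPM scaled by TMM factors, log axis) of 8 members in the 2 Lsm1_KD and the 2 Ctrl libraries. Circles and triangles are replicates 1 and 2, and bars are means. Ybx2, Zar1l, Cpeb1 and Eif4e1b lie higher and Tut7 lower in both Lsm1_KD libraries, and Zar1, Pabpc1l and Pabpn1l overlap between the groups.

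Genes that work with the members were read from the same fit, in 3 lists. Over all features, 6.59% rose and 4.73% fell, and each list is set beside these shares. Of 26 tested storage partners and translational regulators, 2 rose and 1 fell, which is near that background. Lsm14b, a storage granule protein of oocytes, had 2047 and 1959 CPM in Lsm1_KD zygotes, against 681 and 724 CPM in Ctrl zygotes (log2 fold change 1.51, adjusted p = 0.0015 in edgeR). Eif4e3, another member of the eIF4E family, rose by 0.65 on the log2 scale, and Dazl, a germ cell regulator of translation, fell by 0.90. The median of this list was -0.093.

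Among 27 tested genes of polyadenylation and tail binding, 4 rose and 3 fell (6.59% and 4.73% of all features), with a median of 0.029. Paip1, which binds poly(A)-binding protein and promotes translation, had 1327 and 1297 CPM in Lsm1_KD zygotes, against 477 and 469 CPM in Ctrl zygotes (log2 fold change 1.47, adjusted p = 0.0016 in edgeR). Pabpn1, the nuclear poly(A)-binding protein gene, rose by 1.12 and Cpeb4, a paralogue of Cpeb1, by 0.92. The poly(A) polymerase genes Papolg and Tent5c fell by 1.19 and 1.06, and Cpsf2, a subunit of the cleavage and polyadenylation factor, fell by 0.85 on the log2 scale. Among 13 tested genes of uridylation and clearance, 2 rose and none fell (6.59% and 4.73% of all features), with a median of 0.32. They were Lin28a, which recruits TUT4 to let-7 precursors, at 140.0 and 183 CPM in Lsm1_KD zygotes, against 70.8 and 68.3 CPM in Ctrl zygotes (log2 fold change 1.22, adjusted p = 0.0089 in edgeR), and Yap1, a maternal transcriptional coactivator, which rose by 0.73.

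The pull-down was compared with its own lysate RNA to see which RNAs came down with tagged LSM1. Of the 9 members, 8 were lower in both FLAG IP libraries than in both FLAG Input libraries, and only Tut4 was higher. In edgeR on the 8 RIP-seq libraries, Tut4 was called higher and Zar1l and Cpeb1 were called lower, at an adjusted p under 0.05 over 18925 features. Over all features 21.3% were called higher and 5.59% lower, and 42.2% were higher and 30.3% lower in both libraries. An unadjusted p under 0.05 was found for 6 of the 9 members and 46.8% of all features. The median log2 fold change was -1.17 over the members and 0.49 over all features.

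These directions followed the level in the Input. A split of all features at 10 CPM in both FLAG Input libraries was made after seeing the data, and the FLAG Input is also the denominator of the ratio, so the split describes and does not test. The 7534 features above the line had a median log2 fold change of -0.77, with 2.04% called higher and 13.6% called lower, and 66.6% were lower and 5.44% higher in both FLAG IP libraries. The 11391 features below it had a median of 2.56, with 34.1% called higher and 0.272% called lower, and 66.5% were higher and 6.27% lower in both. Tut4 was below the line, at 0.680 and 0.773 CPM, and each of the other 8 members was above it.

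Tut4 had 28.6 and 6.55 CPM in the FLAG IP, while the FLAG Input had 0.680 and 0.773 CPM. Both IP libraries were above both Input libraries, and replicate 1, the library rich in repeats, was the higher. The counts behind these values were 524 and 80 in the FLAG IP, against 16 and 19 in the FLAG Input. The log2 fold change was 4.59 (SE 0.81, adjusted p = 0.0051 in edgeR) and was 3.12 without FLAG IP replicate 1 (adjusted p = 0.013). The call was lost in limma on log2 (TPM + 1), at 1.93 with an adjusted p of 0.109, and when single transcripts were tested (adjusted p = 0.095 in edgeR). In the Ctrl pull-down Tut4 did not pass the test, with 3.26 and 1.28 CPM in the Ctrl IP, while the Ctrl Input had 0.496 and 0.401 CPM. That log2 fold change was 2.30 (SE 0.78, adjusted p = 0.15 in edgeR). With the replicate block it was 2.21 and called (adjusted p = 0.037 in edgeR). The FLAG ratio exceeded it by 2.29 on the log2 scale (SE 1.07, adjusted p = 0.79).

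Zar1l and Cpeb1 were the members called lower in the FLAG IP. Zar1l had 56.7 and 119 CPM in the FLAG IP, while the FLAG Input had 249.6 and 258 CPM, a log2 fold change of -1.53 with SE 0.50 (edgeR adjusted p = 0.042). Cpeb1 had 36.4 and 80.6 CPM in the FLAG IP, while the FLAG Input had 218 and 120 CPM, also a log2 fold change of -1.53 with SE 0.49 (edgeR adjusted p = 0.040). In both genes FLAG IP replicate 1 was lower than replicate 2 in CPM scaled by the TMM factors, of which that of replicate 1 was 1.87, but higher in TPM, at 159 and 123 TPM for Zar1l and 24.1 and 19.5 TPM for Cpeb1. The log2 fold changes without replicate 1 were -1.13 for Zar1l and -1.10 for Cpeb1, both called.

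Eif4e1b fell short of the threshold although its ratio was lower still. It had 151 and 495 CPM in the FLAG IP, while the FLAG Input had 1043 and 1058 CPM (log2 fold change -1.70, SE 0.71, edgeR adjusted p = 0.085). Ybx2 differed widely between the IP replicates, with 64.6 and 290.0 CPM in the FLAG IP, while the FLAG Input had 374 and 420.0 CPM. Its log2 fold change was -1.16 (SE 0.66, adjusted p = 0.17 in edgeR), and -0.49 without FLAG IP replicate 1. Pabpc1l (-1.48), Zar1 (-1.17), Pabpn1l (-0.99) and Tut7 (-0.41) were not called either. With the replicate block Pabpc1l was called lower (-1.68, adjusted p = 0.048 in edgeR). Pabpc1l had 60.6 and 179 CPM in the FLAG IP, while the FLAG Input had 332 and 335 CPM. Zar1 had 82.5 and 181 CPM in the FLAG IP, while the FLAG Input had 324 and 267 CPM. Pabpn1l had 37.0 and 110.3 CPM in the FLAG IP, while the FLAG Input had 113 and 179 CPM. Tut7 lay closest to its Input, with 43.0 and 62.2 CPM in the FLAG IP, while the FLAG Input had 68.1 and 71.8 CPM. Replicate 1 of the FLAG IP was the lower on this scale in each of these genes, and in TPM it was the higher for Zar1 (149 and 120 TPM) and Tut7 (15.5 and 8.18 TPM). The oocyte marker list moved with them, with a summed level of 1491 to 3628 CPM in the FLAG IP, against 6501 to 7104 CPM in the FLAG Input, and its part in these values was not tested.

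How many members were called depended on single libraries. Without FLAG IP replicate 1, 6 members were called, Tut4 higher and Zar1, Zar1l, Cpeb1, Eif4e1b and Pabpc1l lower, against 10.8% of all features called higher and 9.63% called lower. All 9 were called without FLAG IP replicate 2 (36.2% of features higher, 28.6% lower), and 1 (Tut4) was called without any 1 of the other 6 libraries. DESeq2 called 6 members, against 5425 of 18925 features called higher and 2215 called lower. Limma on log2 (TPM + 1) called 7, each of them lower, with Tut4 and Tut7 not called. Over all features limma called 493 higher and 2352 lower.

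In the Ctrl pull-down the same genes lay closer to their Input. None of the 9 members was called in edgeR, against 2.18% of all features called higher and 0.00528% called lower, and 1 member (Tut4) had an unadjusted p under 0.05, as had 17.1% of all features. In both Ctrl IP libraries 1 member was higher and 6 were lower than in both Ctrl Input libraries, against 33.5% and 27.2% of all features. Of the 7534 features at 10 CPM or more in both FLAG Input libraries, 78.5% had a negative log2 fold change in the Ctrl pull-down. Their median was -0.24, and that of the 9 members was -0.17. DESeq2 called none, against 1337 features called higher and 4 called lower. Limma on log2 (TPM + 1) called 1, against 94 features higher and 62 lower. Eif4e1b had 633 and 644 CPM in the Ctrl IP, while the Ctrl Input had 1031 and 1101 CPM (log2 fold change -0.74, SE 0.70, edgeR adjusted p = 0.70). Pabpc1l had 210.0 and 222 CPM in the Ctrl IP, while the Ctrl Input had 335 and 353 CPM (log2 fold change -0.67, SE 0.55, edgeR adjusted p = 0.64). In both genes the IP libraries were close to each other and below the Input. The other 6 abundant members had log2 fold changes between -0.46 for Zar1l and -0.028 for Pabpn1l. The standard errors come from a spread that all 8 RIP-seq libraries share, and without FLAG IP replicate 1 the Ctrl comparison called 4 members, Tut4 higher (2.24) and Eif4e1b (-0.79), Pabpc1l (-0.72) and Zar1l (-0.51) lower, against 9.93% of features called higher and 4.38% lower. Without FLAG IP replicate 2 it called 3, against 11.4% and 2.9%.

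**Figure D4:**
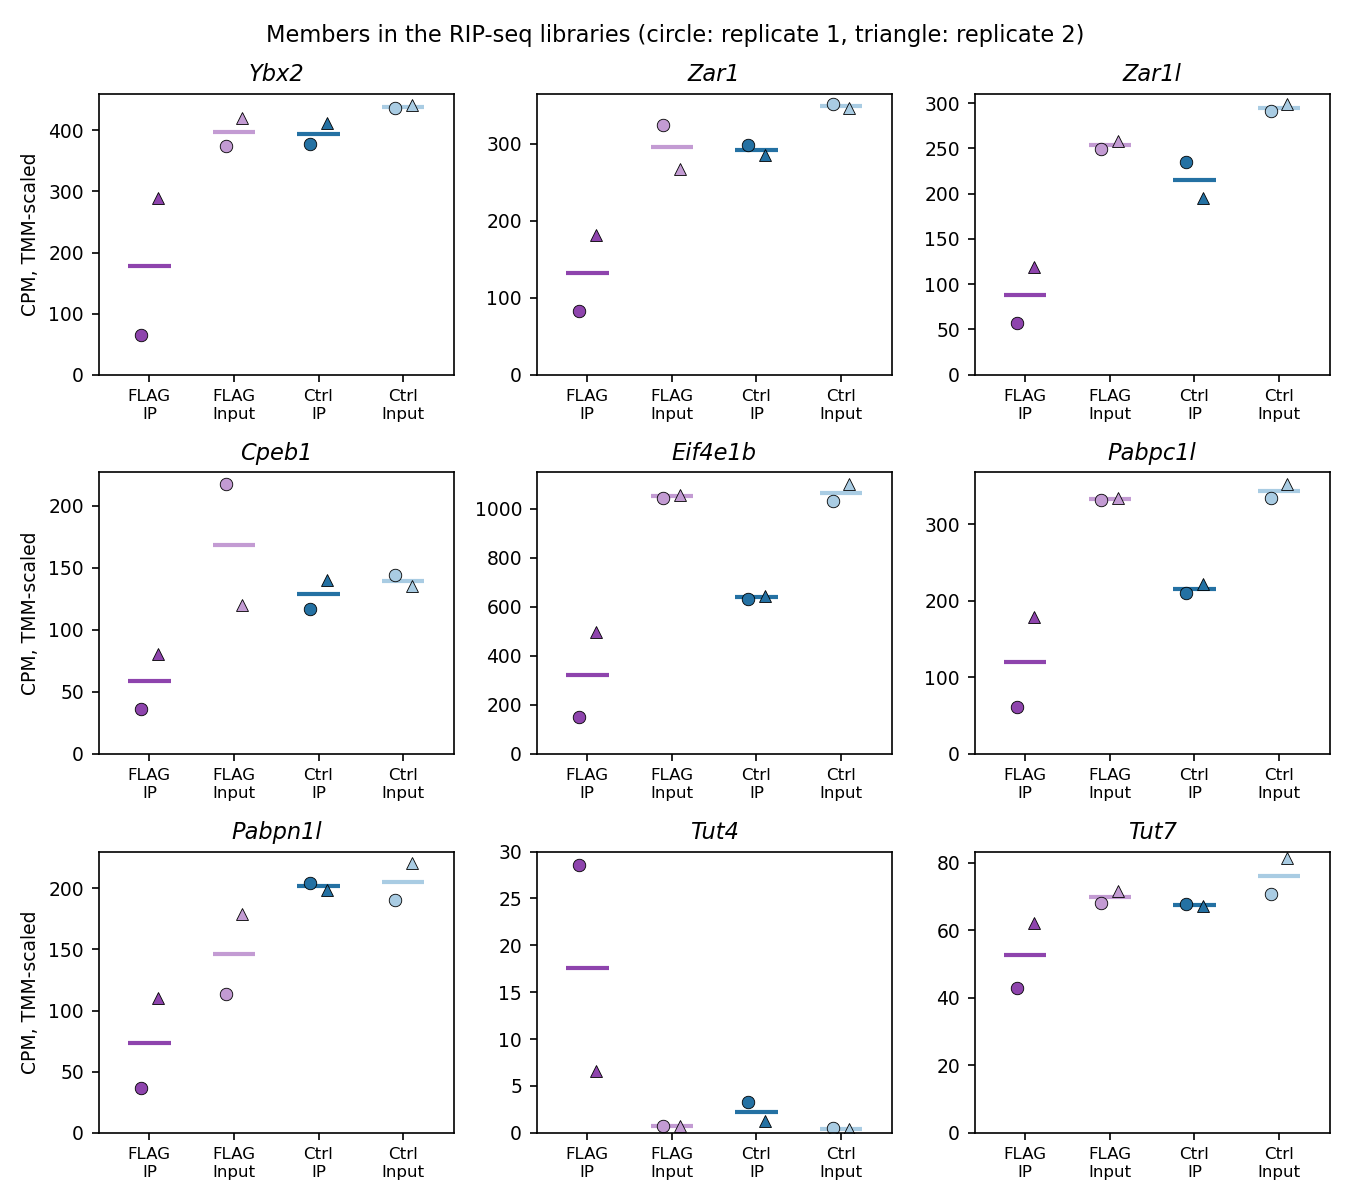
Normalized count (CPM scaled by TMM factors) of the 9 members in the FLAG IP, FLAG Input, Ctrl IP and Ctrl Input libraries. Circles and triangles are replicates 1 and 2, and bars are means. In 8 members the FLAG IP lies below the FLAG Input, with replicate 1 below replicate 2 on this scale (in TPM replicate 1 is above replicate 2 for Zar1, Zar1l, Cpeb1 and Tut7), and Tut4 shows the opposite pattern, at 28.6 and 6.55 CPM in the FLAG IP.

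The FLAG enrichment over Input was then set against the Ctrl enrichment, to ask what the tagged protein adds to the control pull-down. It was lower for 8 members and higher for Tut4, and none was called in edgeR, where the share of 18925 features called was 0% in either direction (5.27% had an unadjusted p under 0.05). No member had an unadjusted p under 0.05. DESeq2 called 1 feature higher and 1 lower, limma called none, and neither called a member. In simulated counts, edgeR recovered 8 of 100 features changed 3-fold in this comparison, and 36 of 100 changed 8-fold. A lack of calls here therefore does not show a lack of change. The log2 differences of the 8 members ran between -1.41 for Cpeb1 (SE 0.68) and -0.24 for Tut7 (SE 0.47), with adjusted p-values of 0.79 or more over the 9 members. The 7534 features at 10 CPM or more in both FLAG Input libraries had a median of -0.52. Without FLAG IP replicate 2, 8 members were called, Tut4 higher and all but Tut7 lower (8.45% of features higher and 22.4% lower), and without FLAG IP replicate 1 none was.

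The lysates were compared to see whether the members differed before the pull-down. Between FLAG Input and Ctrl Input, none of the 9 members was called in edgeR (0% of features in either direction, with an unadjusted p under 0.05 for 0.93% of features and no member), nor in DESeq2 or limma. DESeq2 called 1 feature higher, and limma 1. In both FLAG Input libraries 1 member was higher and 5 were lower than in both Ctrl Input libraries, against 18.3% and 15.9% of all features. The log2 fold changes lay between -0.49 for Pabpn1l (SE 0.53) and 0.68 for Tut4 (SE 0.78). Pabpn1l had 113 and 179 CPM in the FLAG Input, against 190.1 and 221 CPM in the Ctrl Input. Ybx2 had 374 and 420.0 CPM in the FLAG Input, against 436 and 441 CPM in the Ctrl Input.

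**Figure D5:**
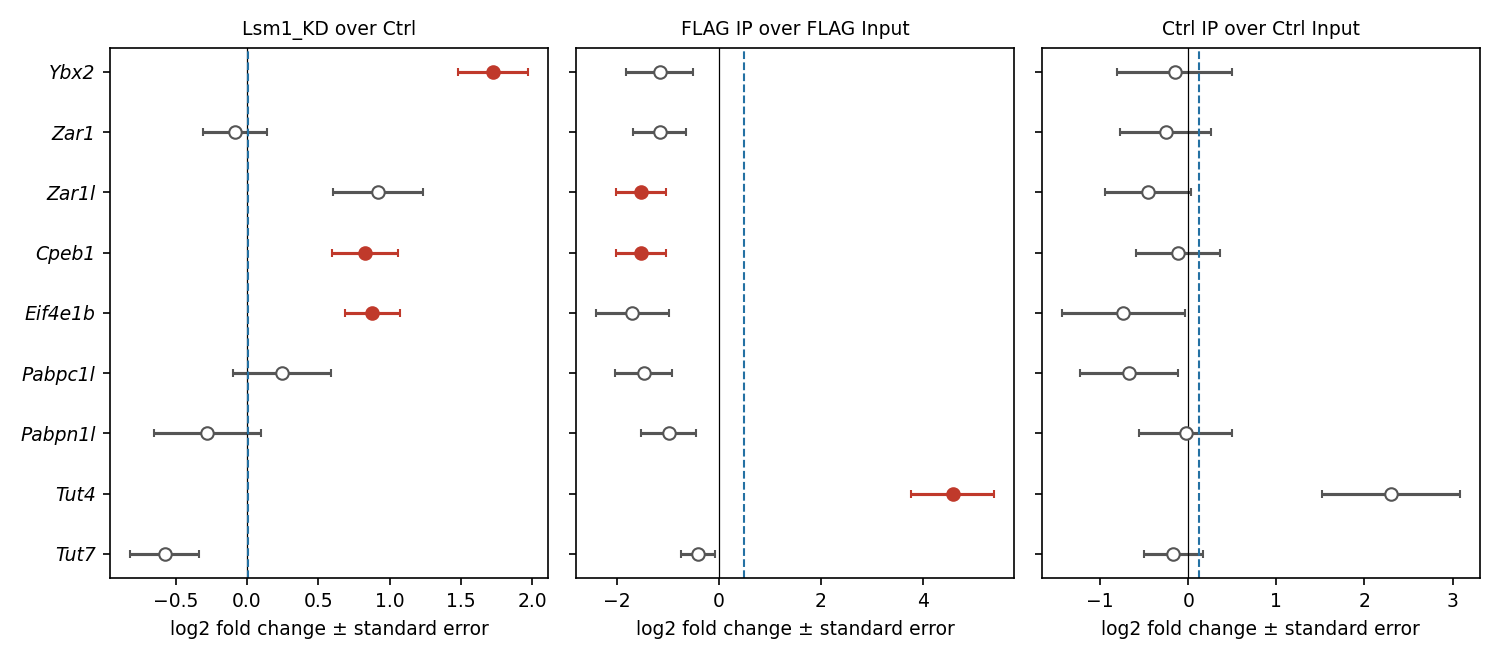
Log2 fold change with its standard error (bars) of the members in 3 comparisons, from edgeR. Filled red points are called at an adjusted p under 0.05, open points are not, and the dashed line is the median of all features tested. Ybx2, Cpeb1 and Eif4e1b are called higher in Lsm1_KD, Tut4 is called higher and Zar1l and Cpeb1 lower in the FLAG IP, and none is called in the Ctrl IP. Tut4 did not pass the filter on low counts in the RNA-seq and has no point there.

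The 3 lists of partners were read from the FLAG pull-down in the same way. The median log2 fold change was -0.92 over 27 storage partners, -0.90 over 28 polyadenylation genes and -0.82 over 14 clearance genes, against 0.49 over all features and -0.77 over the 7534 features at 10 CPM or more in both FLAG Input libraries. That class held 25 of the 27 storage, 24 of the 28 polyadenylation and 11 of the 14 clearance genes. Of the storage list 1 was called higher and 2 lower, of the polyadenylation list 1 higher and 0 lower, and of the clearance list 0 higher and 3 lower, beside 21.3% of all features called higher and 5.59% lower, and 2.04% and 13.6% of the abundant class. Igf2bp1, an mRNA-binding protein gene, had 23.5 and 5.32 CPM in the FLAG IP, while the FLAG Input had 3.06 and 2.40 CPM (log2 fold change 2.40, adjusted p = 0.026 in edgeR). Like Tut4, it was low in the Input and highest in FLAG IP replicate 1. Pabpc1, the somatic counterpart of Pabpc1l, had 28.6 and 16.6 CPM in the FLAG IP, while the FLAG Input had 9.23 and 10.3 CPM (log2 fold change 1.21, adjusted p = 0.037 in edgeR). The cap-binding gene Eif4e (-1.35) and Stau2 (-1.12), which encodes a double-stranded RNA-binding protein, were called lower, as were Trim71 (-1.23), a clearance regulator, and Zfp36l2 (-1.17), which encodes an AU-rich element binding protein. The third of the clearance list was Mtpap (-1.30), the mitochondrial poly(A) polymerase gene, which is named because of its value. No gene of the 3 lists was called in the Ctrl pull-down or in the difference of both ratios in edgeR.

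Across all 12 libraries the members did not follow one pattern. The Pearson correlation of log2 (TPM + 1) ran between -0.62 for Pabpc1l and Zar1 and 0.92 for Zar1l and Ybx2. Outside the members, among 6511 genes at a mean of 10 TPM or more, the gene most like Ybx2 was Rad23b (r = 0.995), that most like Zar1 was Pole4 (0.994) and that most like Eif4e1b was Nfe2l1 (0.986). For Pabpc1l it was Hmga1 (0.987), for Zar1l Ppp3r1 (0.982), for Pabpn1l Poli (0.980), for Cpeb1 Grm4 (0.974) and for Tut7 Dtl (0.974). The 12 libraries fall into RNA-seq, Input and IP kinds that share a kit or a pull-down, and each r is the highest of many, so these values carry no test.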

How the data were processed

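Total RNA-seq (4 libraries) and RIP-seq (8 libraries) of mouse zygotes were read from the deposited Salmon output. The labels name Trimmomatic, FastQC and Salmon and the build mm10, and the study's methods name Cutadapt. The authors deposited estimated counts (NumReads) and TPM for 37713 features, 37366 RefSeq transcripts and 347 repeats. A gene symbol was found for 37249 transcripts, and counts were summed by symbol and rounded. The members, gene lists and tests were chosen with earlier results of these data known.

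Features passing filterByExpr were tested in edgeR 4.0.16 (quasi-likelihood F-tests, run in R 4.3.3) with TMM factors and Benjamini-Hochberg adjustment over all features, and called at an adjusted p under 0.05. RNA-seq and RIP-seq were fitted apart. CPM are scaled by the TMM factors. The highest factor, 1.87, belonged to FLAG IP replicate 1, and the remaining 11 ran between 0.872 and 1.06. The scripts were tested on simulated data. Alternatives were DESeq2 size factors, DESeq2 1.42.0, limma 3.58.1 on log2 (TPM + 1), no filter, single transcripts, no repeats or Lsm1, a length trend taken out, a replicate block, the 4 libraries compared alone and each library left out. All 9 members are described, with up to 3 called genes per list and direction (2 in the RIP-seq) by smallest adjusted p, and the gene most like each tested member. The labels of a group do not say that its samples came from separate pools, although the study's figure legends call them biologically independent. Without separate pools, p-values measure only the spread between these samples. Input and IP were taken from the same lysate per the study's methods, but the labels do not tie their numbers together. Deviations of same-numbered libraries correlated at 0.14 between FLAG IP and Input and 0.11 between Ctrl IP and Input. The kits named in the labels are KAPA RiboErase for the RNA-seq and SMARTer Stranded for the RIP-seq. The study's methods instead name KAPA HyperPlus for its RNA-seq, on cDNA amplified from a few embryos. Which protocol made the RNA-seq libraries is not settled here. Sequences are from RefSeq on GRCm38.p6. A further sequence window is not reported here.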

Additional observations from a re-analysis of the deposited data

How the results depend on the processing

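The number of members called was 3 in the knockdown and kept within 1.5 times of that in 10 of 13 alternatives, while limma on log2 (TPM + 1) called 1, single transcripts 0, and leaving out single libraries 1 to 2. For FLAG IP over Input, where 3 were called, DESeq2 called 6, limma 7 (each lower, Tut4 not called), single transcripts 0, the 4 libraries compared alone 1, and leaving out single libraries 1 to 9. For Ctrl IP over Input, where 0 were called, calling without the filter gave 1, limma 1, the replicate block 1, the 4 libraries compared alone 2, and leaving out single libraries 0 to 4. The difference of both ratios called 0 members, and 0 to 8 without single libraries. FLAG Input over Ctrl Input called 0 under each of 17 alternatives. The number of features called moved as well. For FLAG IP over Input it was 5092 in the main fit, 7640 in DESeq2 and 2845 in limma. It was 7 with single transcripts and 3772 in the 4 libraries alone. Ctrl IP over Input called 413 features higher and 1 lower, against 1644 and 15 without the filter and 94 and 62 in limma. The 4 libraries alone called 2261 higher and 500 lower there. In the knockdown it was 1280, with 1297 in limma and 0 with single transcripts. The causes were not tested.

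Signs changed only in values that were not called. In the knockdown, Pabpc1l was -0.058 in limma and -0.14 to 0.55 without single libraries, Pabpn1l -0.90 to 0.31 and Zar1 -0.42 to 0.17. For Ctrl IP over Input, Pabpn1l was 0.012 in the 4 libraries alone and -0.12 to 0.093 without single libraries, and Cpeb1 -0.26 to 0.0063. For the difference of both ratios, Tut7 was 0.34 in limma and -0.54 to 0.015 without single libraries. For FLAG Input over Ctrl Input, Eif4e1b was 0.031 with DESeq2 size factors and in DESeq2, 0.064 without the filter and 0.061 without repeats and Lsm1. Pabpc1l there was 0.0072 with DESeq2 size factors and in DESeq2, 0.040 without the filter, 0.030 as a single transcript and 0.037 without repeats and Lsm1. Without single libraries, Eif4e1b was -0.021 to 0.11, Pabpc1l -0.045 to 0.078, Tut7 -0.13 to 0.066, Ybx2 -0.14 to 0.0049 and Cpeb1 -0.15 to 0.74.

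The correlation of deviations between same-numbered libraries was -0.17 between Lsm1_KD and Ctrl, and 0.0014 to 0.21 among the groups of the RIP-seq, with 0.14 for FLAG IP and Input and 0.11 for Ctrl IP and Input. With the replicate block, 2 members and 502 features rose in the knockdown and 262 fell, against 745 and 535 without it. The crossed pairing, chosen after seeing the data, called 4 members, with 1411 features higher and 1249 lower. With the block, 4 members were called for FLAG IP over Input (Pabpc1l was added), 1 for Ctrl IP over Input (Tut4, with 1450 features higher and 13 lower against 413 and 1), and 0 for the difference of both ratios and for FLAG Input over Ctrl Input. Without the filter, 1962 features were called in the knockdown against 1280.

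The order of levels had 5 to 7 of 8 neighbouring pairs without overlap in a group by TPM, and CPM per kb of effective length changed no count by more than 1.5 times. At 0 to 6 counts, Tut4 in the RNA-seq was tested only without the filter on low counts. There 9 members were tested and 4 called, and Tut4 was not among those called.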
